A study of Mus musculus with 11 samples.

Results

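The 6 organoid cultures described here are the late-passage libraries of a mouse small-intestine series: passages 11, 12 and 13 of the culture line of mouse_283 and the same 3 passages of the line of mouse_285, 6 of 11 libraries in all. They were chosen by the passage given in the sample titles, which the library descriptions share; the names of the deposited count tables give a passage higher by 1 for every library, and the titles are followed throughout. Both lines carried the Lgr5-EGFP-IRES-creERT2 allele, in which the locus of the crypt stem cell gene Lgr5 drives a green fluorescent protein and an inducible recombinase; the labels name no treatment, and the cultures were split every 7 days in IntestiCult medium and Matrigel. The labels give small intestine epithelium as the source; the protocols name mice of 4 and 24 months and crypts of upper and lower small intestine and colon, but no label ties an age or a gut segment to mouse_283 or mouse_285. Each animal is therefore 1 culture line sampled at 3 successive passages, and age, segment, culture history and animal cannot be told apart. The p-values below measure the spread between libraries of these 2 lines, not between animals.

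Small-intestinal organoids are epithelial structures grown from crypts without the surrounding tissue. Wnt signals keep Lgr5+ stem cells dividing at the crypt base, next to Paneth cells that make antimicrobial proteins and growth signals. Daughter cells become absorptive enterocytes, mucus-secreting goblet cells, hormone-releasing enteroendocrine cells or chemosensory tuft cells, and genes of the gut segment of origin are known to stay active in culture.

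Gene counts summed to between 15114132 and 28949911 reads per library, and 11932 to 12321 genes reached 1 CPM, the field's unit of reads scaled to a common library total. Levels below are CPM scaled by trimmed mean of M-values (TMM), and levels compared between genes are CPM per kilobase of transcript. With 3 reads as the smallest countable amount, the lowest readable level was 0.104 to 0.198 CPM. No 2 libraries agreed within counting noise: the smallest chi-square per degree of freedom between any pair was 13.96, for mouse_285 passages 11 and 13. The library of mouse_283 passage 12 stood apart from the rest. Over all 13653 tested genes it took a score of -42.97 on the second principal component, where the other libraries lay between -4.41 and 27.43, and its profile correlated with the 2 other mouse_283 libraries at r = 0.974 and 0.978 across genes, against 0.983 to 0.988 among the mouse_285 libraries. It also carried the most reads and the largest unmapped share, 8.52%, against a lowest share of 5.93% in mouse_283 passage 11. Where the count of calls over all genes, or the test of a gene named for its fold or p, changes without this library, both values are given.

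The cultures were epithelial at every passage. All 15 epithelial genes listed stood above 10 CPM in every library, and their summed level was 12056 to 15608 CPM. Epcam, the epithelial adhesion molecule, was at 1283, 1232 and 1248 CPM at passages 11, 12 and 13 of mouse_283 and at 1197, 1173 and 1180 CPM in mouse_285. Vil1, which bundles actin in the brush border, was at 589, 558 and 677 CPM in mouse_283 and 571, 535 and 668 CPM in mouse_285. The ranges of the 2 animals did not overlap for Epcam and overlapped for Vil1, and neither gene passed the test of the animals.

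Most markers of other tissues stayed under 1 CPM in every library, although the mesenchymal, immune, endothelial and neural lists each held 1 gene with a mean of at least 5 CPM. Of 18 immune genes, 16 stayed under 1 CPM in all 6 libraries and 5 had no read at all, and the summed level of the list was 8.38 to 14.9 CPM. Ptprc, the pan-leukocyte phosphatase CD45, had reads only in mouse_283 passage 12, at 0.0342 CPM, under the 3-read floor. Of 14 mesenchymal genes found, 11 were under 1 CPM and 4 had no read; Pdgfra, a receptor of fibroblasts, reached at most 0.293 CPM, while Vim, an intermediate filament gene that some epithelial cells also express, was at 13.1, 9.66 and 14.4 CPM in mouse_283 and 13.6, 14.1 and 16.6 CPM in mouse_285. Of 8 endothelial genes 5 were under 1 CPM, and all 6 erythroid genes were, with a summed level of 0.0685 to 0.214 CPM. The neural and glial list, 5 of 7 genes under 1 CPM, summed to 10.7 to 12.1 CPM in mouse_283 and 16.8 to 24.0 CPM in mouse_285.

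**Figure D1:**
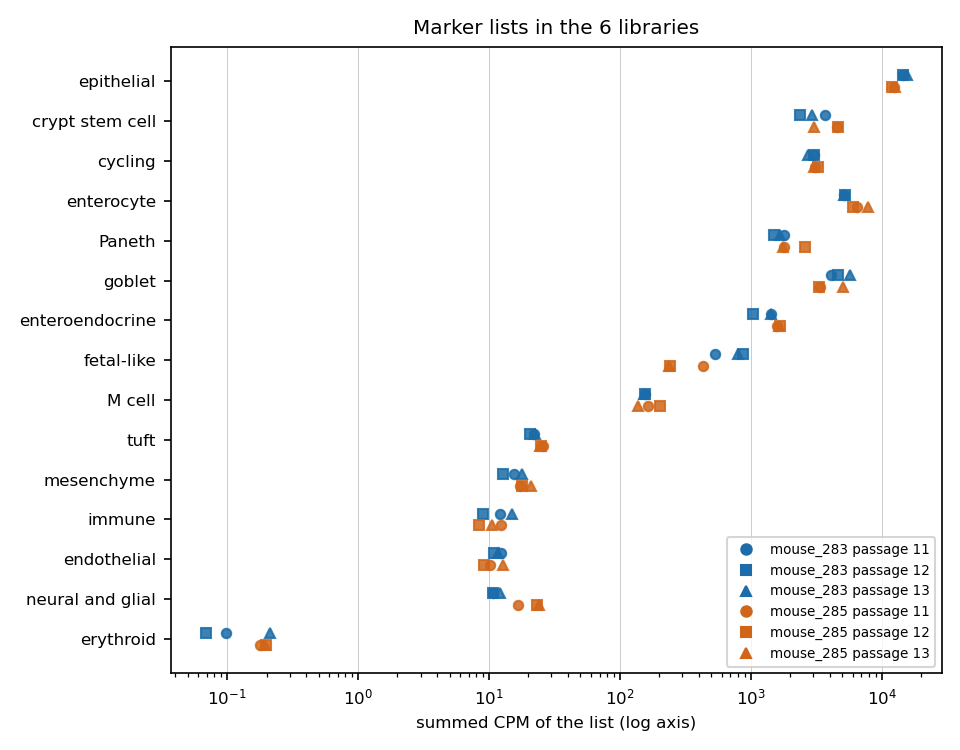
Summed CPM of 15 marker lists (rows) on a log axis, 1 point per library; colour gives the animal and shape the passage. Epithelial, stem, cycling, enterocyte, Paneth, goblet and enteroendocrine lists lie above 1000 CPM in all 6 libraries, while tuft, mesenchymal, immune, endothelial and neural lists lie under 26 CPM and the erythroid list under 0.22 CPM.

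Every main lineage of the crypt and villus other than the tuft lineage was present at a substantial level. The stem list summed to 2358 to 4659 CPM, the enterocyte list to 5121 to 7881 CPM, the goblet list to 3308 to 5693 CPM, the Paneth list to 1500 to 2600 CPM and the enteroendocrine list to 1044 to 1672 CPM. In bulk RNA, fewer cells of a type and less RNA per cell cannot be told apart. The cycling list was the steadiest of these: its sum was 2753 to 3264 CPM, a coefficient of variation of 5.39% over the 6 libraries, against 26.2% for stem genes. Mki67, the proliferation antigen, varied more than the list it belongs to, at 88.2, 253 and 72.5 CPM in mouse_283 and 144, 210.3 and 135 CPM in mouse_285, with passage 12 highest in both. Top2a, the topoisomerase of dividing cells, was at 245, 275 and 185 CPM and 319, 289 and 258 CPM in the same order.

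Tuft cell genes were close to absent. Their 22 genes together reached 20.4 to 25.9 CPM, 13 were under 1 CPM in every library, and none stood above 10 CPM in all 6. Dclk1, the kinase that marks tuft cells, was at 0.927, 0.308 and 1.01 CPM in mouse_283 and 1.7, 0.982 and 1.76 CPM in mouse_285. The 9 M cell genes, markers of the antigen-sampling cells over lymphoid follicles, summed to 137 to 202 CPM, with 2 of them at no read.

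Secretory cells were represented by their usual products. The secreted goblet proteins Fcgbp and Tff3 had levels per kilobase of 348 and 1347 CPM, and the mucin Muc2 one of 43.2 CPM. Muc2 was at 111, 154 and 115 CPM in mouse_283 and 97.8, 108 and 173 CPM in mouse_285, whereas Retnlb, a goblet product of inflamed or colonised gut, had no read in any library. Among Paneth products Lyz1, lysozyme, was at 363, 278 and 353 CPM in mouse_283 and 358, 504 and 328 CPM in mouse_285. The lectin Itln1 was at 656, 678 and 705 CPM and 686, 973 and 783 CPM, and the defensin Defa24 at 335, 234 and 254 CPM and 381, 619.6 and 373 CPM. For Lyz1, Itln1 and Defa24 alike, the highest library was mouse_285 passage 12. Defensin genes are close copies: 28.1% of the 50-base words of the longest Defa24 transcript occur in transcripts of another gene, and 99.7% of those of Defa5, so reads may be split between copies or lost.

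Regional genes were mostly those of the small intestine, with a few colon-list genes detected. Gata4, the transcription factor of duodenum and jejunum, was at 280.2, 235 and 251 CPM in mouse_283 and 259, 246 and 284 CPM in mouse_285, a spread of 19.5 CPM (SD, n = 6) about a mean of 259 CPM. The 8 ileum genes summed to 53.1 to 99.6 CPM, and 4 of them were under 1 CPM in every library. Most of the sum came from Amn, the membrane partner of the receptor cubilin, at 47.9, 47.2 and 46.7 CPM in mouse_283 and 51.6, 61.7 and 69.9 CPM in mouse_285. Fabp6, the ileal bile acid binding protein, was at most 0.0655 CPM, under the floor, and the bile acid transporter Slc10a2 at most 0.98 CPM. Among 12 colon genes, 8 were under 1 CPM in every library, and Car1 and Hoxd12 had no read. Among those detected, Cyp2c55, a cytochrome P450, was at 605, 649 and 653 CPM in mouse_283 and 671, 589 and 735 CPM in mouse_285. Slc26a3, a chloride and bicarbonate exchanger, was at 37, 51.9 and 37 CPM and 47.6, 47.8 and 71 CPM, and Slc37a2, a sugar-phosphate exchanger, lay between 2.25 and 4.83 CPM. The Y-linked genes Ddx3y, Kdm5d, Uty and Eif2s3y had no read in any library, and Xist, which silences one X chromosome in females, was at 172, 567 and 254 CPM in mouse_283 and 366, 314 and 310.3 CPM in mouse_285.

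Per kilobase, the most abundant transcripts encoded respiration, translation, metal binding and glycolysis. mt-Co1, a subunit of cytochrome c oxidase encoded in the mitochondrial genome, led with 17851 CPM per kilobase, followed by the elongation factor Eef1a1 at 7887, the metallothionein Mt2 at 7720 and the mitochondrial genes mt-Nd1 and mt-Cytb at 5782 and 5608. Of the 20 highest, 12 encode ribosomal proteins, from Rplp1 at 5310 to Rps26 at 2374. Mt1, the paralog of Mt2, and the glycolytic enzymes Gapdh and Aldoa stood at 4430, 3996 and 2509. Many of these genes share sequence with other annotated transcripts: 59.2% of the 50-base words of Eef1a1, 51.1% of those of mt-Co1 and 60.0% of those of Rplp1 occur in another annotated transcript. The 10 most counted genes took 7.69 to 9.60% of gene reads, and 592 to 696 genes held the first 50% of them.

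Metallothioneins, small proteins that bind zinc and copper, varied among these abundant genes. Mt1 was at 4532, 3659 and 2902 CPM in mouse_283 and 5070, 7657 and 5017 CPM in mouse_285, and Mt2 at 3751, 3162 and 2628 CPM and 3933, 6075 and 4120 CPM. Every mouse_285 library was above every mouse_283 library for both, but the adjusted p was 0.154 for Mt1 and 0.21 for Mt2.

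Most expressed genes held their level across the 6 libraries. Among 7376 genes of at least 20 CPM the median SD of log2 CPM was 0.153, and 81.7% had an SD under 0.25. The steadiest were Bod1, a factor for chromosome alignment on the spindle, with an SD of 0.0112 on the log2 scale around 49.9 CPM, the transporter-like Mfsd14a at 80.9 CPM, Tmem234 at 106 CPM, the chaperonin subunits Cct8 and Cct3 at 303 and 312 CPM, and the ceramide synthase Cers4 at 97.7 CPM. Aurka, a mitotic kinase, Rhot1, which moves mitochondria, the GTPase Nras and the complex III subunit Uqcrfs1 completed the 10, with means of 68.2, 51.1, 63.2 and 327 CPM. Only 26 genes, 0.353%, had an SD over 1. The 15 most variable named genes were Gcg, Slc40a1, Olfm4, Akp3, Syt8, Pdx1, Naaladl1, Kcnn4, Anxa10, Msln, Ly6d, Clca4b, Slc30a2, Alpi and Ly6a, with SDs from 1.14 to 2.12.

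**Figure D2:**
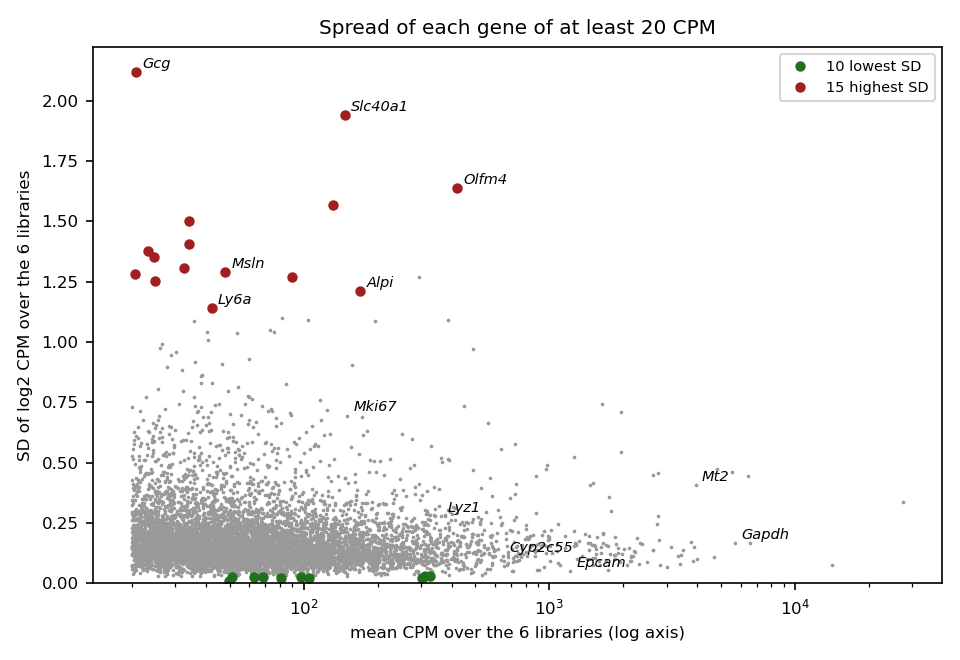
SD of log2 CPM over the 6 libraries (vertical axis) against mean CPM (log axis), 1 point per gene of at least 20 CPM. Green points are the 10 lowest and red points the 15 highest SDs among genes with an assigned name; most genes lie under 0.25, and Gcg, Slc40a1 and Olfm4 lie highest among those named.

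Of the variable genes, 12 had libraries of the 2 animals that did not overlap, whereas Olfm4, Msln and Ly6d overlapped. Over all tested genes the animals did not overlap in 16.2%. The variable genes were picked for a high SD over the same libraries, a choice that itself favours genes split by animal. Olfm4, a secreted marker of crypt stem cells, was at 357, 42.5 and 152 CPM in mouse_283 and 759, 938 and 283.4 CPM in mouse_285. Its lowest value was in mouse_283 passage 12 and its highest in mouse_285 passage 12, and it passed neither the test of the animals (adjusted p = 0.254) nor that of the passages (adjusted p = 0.617). Lgr5 itself was less variable, at 226, 103 and 149 CPM and 262, 229 and 153 CPM; the allele carried by both lines alters this locus.

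The first principal component of the 6 libraries separated the 2 culture lines. It held 38.2% of the variance over all 13653 tested genes and 56.5% among the 500 most variable, where its scores were -23.35 to -8.64 for mouse_283 and 12.6 to 22.65 for mouse_285. In edgeR's quasi-likelihood test with passage in the model, 153 of 13653 genes (1.12%) passed an adjusted p of 0.05: 64 (0.469%) were higher and 89 (0.652%) lower in mouse_285, while 1901 genes (13.9%) had an unadjusted p under 0.05. Of the 153, 97 differed by more than 1 on the log2 scale and 44 by more than 2, and in 151 the animals' libraries did not overlap. Non-overlap alone was met by 2218 genes (16.2%). The number of calls depended strongly on single libraries: 63 passed without mouse_283 passage 13 and 80 without mouse_285 passage 13, 341 and 322 without passage 11 of mouse_283 and of mouse_285, and 1764 and 1701 without passage 12 of each. Of the 153 genes, 58 to 153 passed again in these 6 fits. No low-count filter gave 670 genes, DESeq2 482 and a correction for GC content and length 291.

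**Figure D3:**
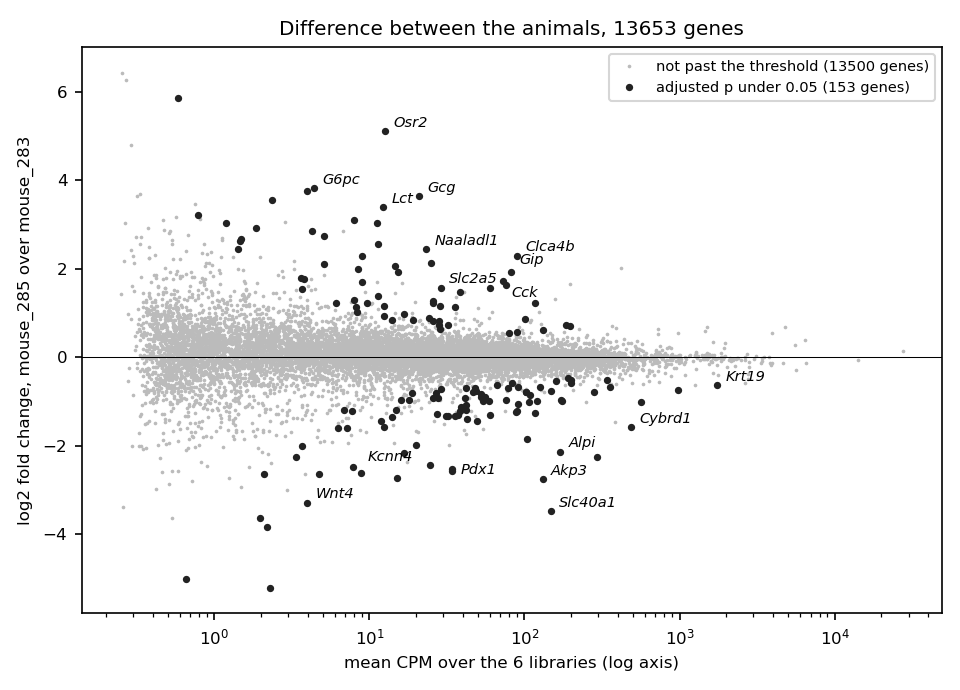
Log2 fold change of mouse_285 over mouse_283 against mean CPM (log axis), 1 point per tested gene; black points passed an adjusted p of 0.05. Osr2, Gcg and Lct stand well above 0 and Slc40a1, Akp3 and Pdx1 well below it, at levels from about 10 CPM upward.

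Slc40a1 and Cybrd1, which carry out steps of duodenal iron uptake, were higher in mouse_283. Slc40a1, ferroportin, which exports iron from the enterocyte to the blood, was at 259.8, 235 and 317 CPM at passages 11, 12 and 13 of mouse_283 and at 34.1, 18.1 and 21.7 CPM in mouse_285. It was 11.2-fold higher in mouse_283 (log2 difference of mouse_285 over mouse_283 -3.48 ± 0.19 SE, adjusted p = 0.00154). The iron reductase Cybrd1 was at 772, 507 and 904 CPM against 356, 184 and 198 CPM (3.01-fold, adjusted p = 0.0232), and the iron importer Slc11a2 at 772, 555 and 931 CPM against 481, 264 and 383 CPM (log2 difference -1.01, adjusted p = 0.0232). Slc11a2 was outside the gene lists and the naming rules and is given as an added example. In each of the 3 genes every mouse_283 library was above every mouse_285 library. Pdx1, a transcription factor of pancreas and proximal duodenum, followed the same order, with 65.9, 50.6 and 57.8 CPM against 10.9, 7.73 and 11.6 CPM and a 5.8-fold difference (adjusted p = 0.00147).

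The list of proximal small-intestine genes did not move as one. Of its 10 genes, 3 passed the test as higher in mouse_283 (Slc40a1, Cybrd1, Pdx1) and 2 as higher in mouse_285 (Gip, Lct), beside 0.652% and 0.469% of all genes. The median log2 difference of the list was -0.16, against 0.028 for all tested genes. Gata4 had a difference of 0.042 ± 0.088 SE.

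Alpi and Akp3, intestinal alkaline phosphatases of the brush border that remove phosphate from lipids and bacterial lipopolysaccharide, were also higher in mouse_283. Alpi was at 193, 329 and 311 CPM in mouse_283 and 62.4, 50.9 and 73.5 CPM in mouse_285, 4.38-fold higher (adjusted p = 0.00826), and its paralog Akp3 at 145, 283.5 and 259.8 CPM and 32.2, 24.9 and 42.9 CPM, 6.71-fold higher (adjusted p = 0.00758). Both genes had their lowest mouse_283 value at passage 11 and their lowest mouse_285 value at passage 12.

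Lct, Slc2a5 and G6pc, which act on sugars, went the other way. Lct, lactase, the enzyme of milk sugar digestion, was at 2.29, 1.61 and 2.24 CPM in mouse_283 and 16.6, 17.4 and 33.3 CPM in mouse_285, 10.5-fold higher in mouse_285 (adjusted p = 0.00468). Slc2a5, the fructose transporter GLUT5, was at 11.3, 15.5 and 15.4 CPM and 27.9, 40.8 and 62.6 CPM, 2.98-fold higher in mouse_285 (adjusted p = 0.0145). G6pc, the last enzyme of glucose release, was at 0.635, 0.856 and 0.214 CPM and 6.03, 9.3 and 9.35 CPM. Sis, sucrase-isomaltase, did not overlap between the animals, at 65.7, 185 and 60.3 CPM and 260.0, 247 and 359 CPM, yet its adjusted p was 0.107. Of 30 enterocyte genes, 25 had a higher mean log2 level in mouse_285, with a median difference of 0.40; 3 passed in edgeR as higher (Lct, Slc2a5 and the peptidase Ace) and 2 as lower (Alpi and Prap1, a secreted enterocyte protein), beside 0.469% and 0.652% of all genes. DESeq2 called 9 of the 30 as higher and 2 as lower, beside 176 and 306 of 13653 genes. Ace had an adjusted p of 0.0847 without mouse_283 passage 13 and 0.0947 without mouse_285 passage 13.

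The 250 bases before the RefSeq start sites (GRCm38.p6) of Lct, Alpi and Akp3 are shown because these enterocyte genes differed between the lines in opposite directions. Capitals mark the words GATAA (bound by GATA factors) and TTTATG (bound by CDX factors), searched on both strands as GATAA or TTATC and as TTTATG or CATAAA; the words do not overlap each other.
Lct (chr1:128328319-128328568, minus strand): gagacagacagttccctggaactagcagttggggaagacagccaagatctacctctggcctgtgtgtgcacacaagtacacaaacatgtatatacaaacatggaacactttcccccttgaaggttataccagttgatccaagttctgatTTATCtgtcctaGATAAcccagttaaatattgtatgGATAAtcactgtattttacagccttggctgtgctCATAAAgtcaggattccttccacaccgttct
Alpi (chr1:87101607-87101856, minus strand): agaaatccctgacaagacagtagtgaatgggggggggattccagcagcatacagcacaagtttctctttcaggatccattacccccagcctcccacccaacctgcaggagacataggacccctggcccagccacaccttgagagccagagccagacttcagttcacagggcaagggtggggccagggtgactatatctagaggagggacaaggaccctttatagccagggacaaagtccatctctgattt
Akp3 (chr1:87124704-87124953, plus strand): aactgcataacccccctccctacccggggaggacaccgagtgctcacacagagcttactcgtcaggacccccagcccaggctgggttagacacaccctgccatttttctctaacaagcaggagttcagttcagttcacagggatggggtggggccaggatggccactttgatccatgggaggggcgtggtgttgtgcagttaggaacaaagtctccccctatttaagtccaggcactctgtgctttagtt
The Lct window held 3 GATAA words and 1 TTTATG word, and the Alpi and Akp3 windows held 0 of either. The windows of Gcg, higher in mouse_285 as Lct was, and of Pdx1, higher in mouse_283, were also searched and held 0 of either. Only the Lct window held either word, and a link between the words and the direction of the difference was not tested. Among 32851 RefSeq windows of this length, 22.6% held at least 1 GATAA and 10.8% at least 1 TTTATG. A match is a description of the letters and not of binding.

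**Figure D4:**
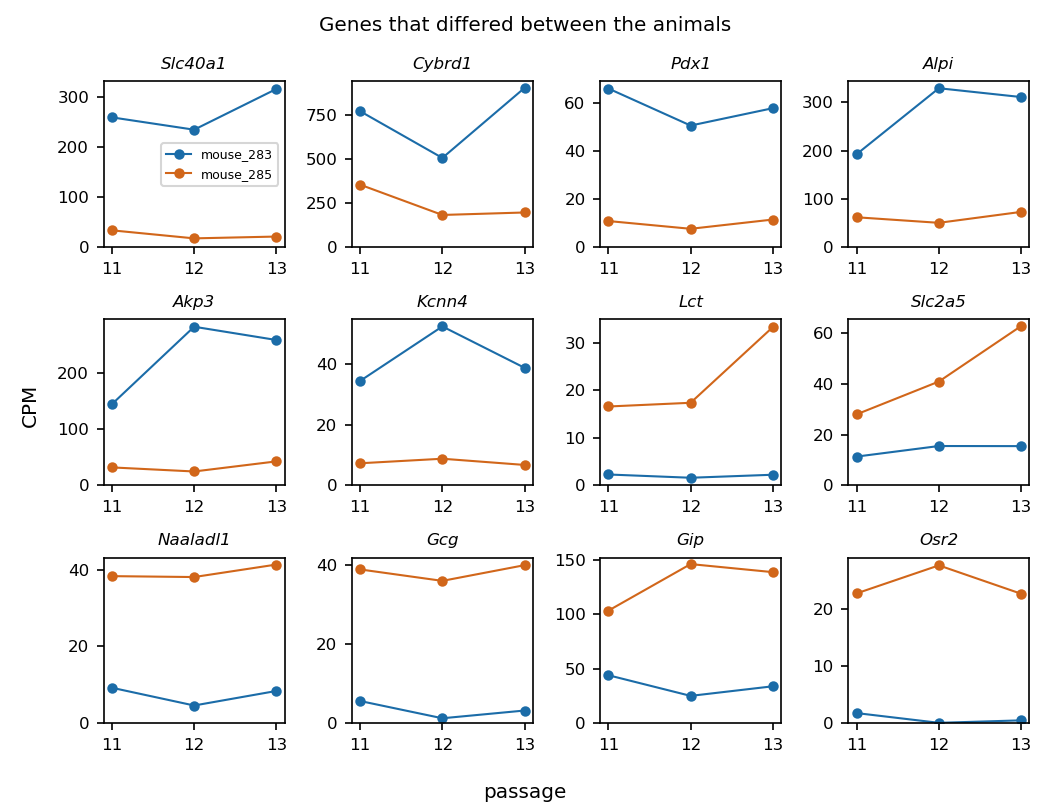
CPM (vertical axes from 0) of 12 genes at passages 11, 12 and 13, 1 line per animal. Slc40a1, Cybrd1, Pdx1, Alpi, Akp3 and Kcnn4 lie higher in mouse_283 at every passage and Lct, Slc2a5, Naaladl1, Gcg, Gip and Osr2 lie higher in mouse_285.

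Gcg, Gip and Cck, peptide hormone genes of enteroendocrine cells, were higher in mouse_285. Gcg, which encodes the glucagon-like peptides, was at 5.66, 1.3 and 3.26 CPM in mouse_283 and 38.9, 36 and 40.0 CPM in mouse_285, 12.5-fold higher (log2 difference 3.64 ± 0.35 SE, adjusted p = 0.0104). Gip, the glucose-dependent insulinotropic peptide of K cells, was at 44.2, 25.3 and 34.1 CPM and 103, 146 and 139 CPM (3.8-fold, adjusted p = 0.0232), and cholecystokinin, Cck, at 53, 20.1 and 33.9 CPM and 119, 110.1 and 102 CPM (3.31-fold, adjusted p = 0.0277). In all 3 the mouse_283 passage 12 library was the lowest of the 6, and the animals did not overlap at any passage.

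The enteroendocrine difference was uneven across the list. Chga, a granule protein of most enteroendocrine cells, was at 169.6, 131 and 189 CPM in mouse_283 and 185, 211 and 216 CPM in mouse_285 and did not pass (adjusted p = 0.286), nor did Chgb, at 719.6, 544 and 734 CPM and 671, 658 and 702 CPM (adjusted p = 0.93). Pax6, a transcription factor of endocrine cells, was higher in mouse_283, at 14.5, 15 and 15.7 CPM against 2.41, 3.41 and 1.7 CPM (6.1-fold, adjusted p = 0.00934). Of 29 tested genes of the list, 26 had a higher level in mouse_285 with a median log2 difference of 0.41. In edgeR 3 passed as higher and 1 as lower, beside 0.469% and 0.652% of all genes. In DESeq2 6 passed as higher and 1 as lower, beside 176 and 306 of 13653 genes. The animals did not overlap in 14 higher and 2 lower genes, beside 7.84% and 8.41% of all genes.

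Other transcription and signalling genes separated the lines by large factors. Osr2, a zinc-finger factor listed among the ileal genes, was at 1.81, 0.103 and 0.534 CPM in mouse_283 and 22.7, 27.6 and 22.7 CPM in mouse_285, a 34.7-fold fitted difference (adjusted p = 0.0232). One of the mouse_283 values, at passage 12, was at the 3-read floor. The log2 difference of Osr2, 5.12 over the 6 libraries, was 4.25 and 4.27 without passage 12 of mouse_283 and of mouse_285, and 6.44 and 6.46 without their passage 11. Wnt4, a Wnt ligand, was at 4.69, 8.73 and 8.22 CPM against 0.536, 0.721 and 0.915 CPM (9.75-fold higher in mouse_283, adjusted p = 0.00587), Wwtr1, the Hippo pathway co-activator TAZ, at 13.6, 10.1 and 16.2 CPM against 3.26, 2.16 and 1.63 CPM (adjusted p = 0.0206), and the potassium channel Kcnn4 at 34.4, 52.3 and 38.7 CPM against 7.28, 8.78 and 6.73 CPM (adjusted p = 0.00147). Esrrg, an orphan nuclear receptor of oxidative metabolism, was higher in mouse_285 at 15.9, 17.2 and 9.08 CPM against 4.05, 0.685 and 1.12 CPM (adjusted p = 0.0409), but its adjusted p was 0.0606 with animal alone in the model. Its log2 difference of 3.09 became 2.34 and 2.36 without passage 12 of mouse_283 and of mouse_285, and 3.82 and 3.85 without their passage 11.

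The 12 largest called differences towards mouse_285, among genes of at least 5 CPM there whose animals did not overlap, held 7 more genes. Clca4b, a secreted regulator of chloride channels, was at 36.1, 29.8 and 25.5 CPM in mouse_283 and 150.4, 142 and 154 CPM in mouse_285 (adjusted p = 0.00147); 24.8% of its 50-base words are shared with another gene, most with Clca4a. Naaladl1, an intestinal peptidase, was at 9.27, 4.66 and 8.44 CPM and 38.3, 38.1 and 41.3 CPM. Ctrb1 and Spink1, a digestive protease and a protease inhibitor known from the pancreas, averaged 19.8 ± 1.31 and 7.55 ± 1.82 CPM (SD, n = 3) in mouse_285 against 2.51 ± 1.13 and 1.04 ± 0.518 CPM in mouse_283. Aspg and Vwa2, an asparaginase and a secreted matrix protein, averaged 19.4 ± 4.61 and 8.8 ± 1.12 CPM against 3.35 ± 1.19 and 1.36 ± 0.483 CPM. The potassium channel subunit Kcns3 averaged 7.24 ± 3.04 against 0.66 ± 0.781 CPM, and its adjusted p of 0.0233 became 0.0587 with animal alone in the model. The log2 difference of Kcns3, 3.77, was 3.12 and 3.15 without passage 12 of mouse_283 and of mouse_285, and 4.72 and 4.74 without their passage 11.

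In the other direction, Car2, a carbonic anhydrase, averaged 26 ± 3.64 CPM in mouse_283 and 4.06 ± 2.22 CPM in mouse_285, and Syt8, of the synaptotagmin family of vesicle proteins, 58.7 ± 15.7 and 9.94 ± 4.36 CPM. Nt5e, the ectoenzyme CD73 that makes adenosine, averaged 8.21 ± 3.81 against 1.27 ± 0.573 CPM (adjusted p = 0.0308, and 0.102 without mouse_283 passage 13). The log2 difference of Nt5e, -2.63, was -3.24 without mouse_283 passage 11, and that of Syt8, -2.57, was -3.21 and -3.18 without passage 11 of mouse_283 and of mouse_285. The sulfotransferase Sult6b2 averaged 27.4 ± 9.4 against 5.9 ± 1.54 CPM.

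Fetal-like and stress genes had mostly lower levels in mouse_285. The fetal-like list holds 18 genes active in the fetal and the regenerating gut, of which 6 were under 1 CPM in every library and 12 could be tested. All 12 tested genes had a lower level in mouse_285, with a median log2 difference of -1.26 against 0.028 for all genes, and the summed level was 538, 870 and 796 CPM in mouse_283 and 431, 243 and 239 CPM in mouse_285. The animals did not overlap in 5 of the 12, beside 8.41% of all genes. Of the 12, 2 passed in edgeR as lower in mouse_285, beside 0.652% of all genes, and 3 in DESeq2, beside 306 of 13653 genes. The 2 were S100a6, a calcium-binding protein, at 102, 218 and 176 CPM against 52.7, 35.7 and 43.6 CPM (adjusted p = 0.0407), and Areg, an epidermal growth factor receptor ligand, at 228, 198 and 265 CPM against 157, 96.7 and 99.5 CPM (adjusted p = 0.0456). Without mouse_283 passage 13 the adjusted p was 0.0607 for S100a6 and 0.101 for Areg, and without mouse_285 passage 13 it was 0.0735 for Areg. Ly6a, the surface antigen Sca-1, was at 41.5, 75.8 and 74.5 CPM and 35.6, 14.2 and 12 CPM and missed the threshold (adjusted p = 0.152), as did Clu, at 19.1, 95.5 and 42.1 CPM and 31.4, 14.2 and 13.3 CPM (adjusted p = 0.434). Within mouse_283 passage 11 was the lowest of the 3 sums and within mouse_285 it was the highest.

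Of the immediate-early and unfolded-protein lists 18 and 20 genes were tested. DESeq2 called 5 and 3 of them as higher in mouse_283, beside 306 of 13653 genes. In edgeR 2 genes of each list passed as higher in mouse_283, beside 0.652% of all genes. They were Klf4, a factor of goblet and differentiated cells (62.3, 66.8 and 75.2 CPM against 33, 33.6 and 44 CPM, adjusted p = 0.0157), and Ier3 (54.6, 45.3 and 59.9 CPM against 34, 21.7 and 19.1 CPM, adjusted p = 0.0456), and then Trib3 (88, 99.7 and 111 CPM against 62.9, 68.3 and 67.2 CPM, adjusted p = 0.0382) and Chac1 (53.5, 45.7 and 56 CPM against 30.3, 28.9 and 36.3 CPM, adjusted p = 0.0308), both targets of the stress factor ATF4. Of 18 tested immediate-early genes 15 were lower in mouse_285 (median log2 difference -0.36), and of 20 unfolded-protein genes 18 were (median -0.18). Krt19, a keratin of simple epithelia, was the 1 epithelial gene of 15 that passed in edgeR, at 2136 ± 183 CPM (SD, n = 3) in mouse_283 and 1377 ± 65.4 CPM in mouse_285 (adjusted p = 0.0441); DESeq2 also called the keratins Krt8 and Krt18. The calls of Trib3, Chac1, Ier3 and Krt19 depended on single libraries: without mouse_283 passage 13 the adjusted p was 0.269 for Trib3, 0.127 for Chac1, 0.0937 for Ier3 and 0.265 for Krt19. Without mouse_285 passage 13 it was 0.238, 0.0968, 0.0577 and 0.243 for Trib3, Chac1, Ier3 and Krt19.

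Stem, cycling and Paneth genes gave no edgeR call between the animals. Of 21 tested stem genes 17 had a higher level in mouse_285, with a median log2 difference of 0.29. In edgeR 0 passed the threshold and 11 had an unadjusted p under 0.05, beside 13.9% of all genes. DESeq2 called 3 (Aqp4, Cd44 and Slc12a2), beside 482 of 13653 genes. Of 17 tested Paneth genes 15 were higher in mouse_285, median 0.71, with 0 calls, 7 at an unadjusted p under 0.05 and 1 call (Nupr1, lower in mouse_285) in DESeq2. The 25 cycling genes had a median of 0.07, 0 calls in either tool and 1 at an unadjusted p under 0.05.

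With all 6 libraries passage gave no call in edgeR. No gene passed an adjusted p of 0.05 in edgeR's quasi-likelihood test for any difference among passages 11, 12 and 13 with animal as a term (0 of 13653, or 0%; 1484 genes, 10.9%, at an unadjusted p under 0.05). The count was also 0 for passage 12 against 11 (1429 unadjusted, 10.5%), 13 against 12 (2059, 15.1%), 13 against 11 (605, 4.43%) and a linear slope over the passage number (313, 2.29%). A difference in slope between the animals gave 0 calls and 108 genes (0.791%) at an unadjusted p under 0.05. DESeq2 called 207, 68, 306, 2, 1 and 1 genes in these 6 tests, and edgeR with no low-count filter 234, 65, 367, 1, 0 and 22. The absence of calls depended on single libraries for most of these tests. Without mouse_283 passage 12, 653 genes passed for any passage, 23 for 12 against 11, 783 for 13 against 12 and 304 for 13 against 11. Without mouse_285 passage 12 the same counts were 2316, 2255, 1959 and 245. Without passage 11 of either mouse_283 or mouse_285, 14 genes passed for 13 against 12. The slope difference between animals gave 284 genes without mouse_283 passage 11, 16 without mouse_283 passage 12 and 273 without mouse_283 passage 13. Each such fit leaves 1 passage with a single library, whose spread is then assumed to equal that of the others.

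The shares of the variance between animals and between passages depended on how genes were weighted. Pooled over the 7376 genes of at least 20 CPM, animal accounted for 36.3% of the variance in log2 CPM, passage for 41.2% and the rest for 22.5%; with no difference of any kind this layout would give 20%, 40% and 40%. As the mean of each gene's own shares, animal accounted for 24.1% and passage for 48.6% (medians 14.6% and 49.2%). Over all 13653 tested genes the pooled shares were 36.3% for animal and 34.5% for passage. Over all tested genes the steps taken by the 2 lines were weakly correlated. From passage 11 to 12 the correlation of the 2 animals' steps was 0.0018, from 12 to 13 it was 0.142 and from 11 to 13 it was 0.12, over 13653 genes that are not independent. From passage 11 to 12, 279 genes of at least 5 CPM were higher and 145 lower by 1 or more on the log2 scale in mouse_283, against 3 and 35 in mouse_285. Of these, 1 was higher and 3 were lower in both. By order alone, 21.0% of 10113 genes of at least 5 CPM were lowest and 16.9% highest at passage 12 in both lines.

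The genes nearest to the threshold shared a dip or a peak at passage 12 in both lines. Cbl, a ubiquitin ligase that ends growth factor receptor signalling, was at 14.4, 5.41 and 17.7 CPM at passages 11, 12 and 13 of mouse_283 and at 17.2, 7.66 and 21 CPM in mouse_285. Lrp1, an endocytic receptor, was at 76.7, 52.9 and 94 CPM and 78, 50.4 and 93.7 CPM, Mgat5, a glycosyltransferase that branches N-glycans, at 39.1, 20.1 and 53.6 CPM and 39.4, 24 and 49.1 CPM, and the phosphodiesterase Pde3a at 13.7, 5.68 and 15 CPM and 19.9, 9.5 and 27.4 CPM. All 4 were lowest at passage 12 in both animals, as were 21.0% of 10113 genes of at least 5 CPM. mt-Rnr2, the large mitochondrial ribosomal RNA, was highest at passage 12 in both, as were 16.9% of those genes. It was at 749.7, 1143 and 571 CPM and 852, 1282 and 684 CPM. The 5 genes were picked by their p for passage in these same libraries, a choice that itself favours a shape shared by both lines. The 5 had an adjusted p of 0.365 for any passage in edgeR with all 6 libraries, the smallest value reached by any tested gene. All 5 passed under 4 of the alternatives. Their adjusted p was 9.2e-10 (mt-Rnr2) to 0.000226 (Lrp1) in DESeq2 and 0.00178 (mt-Rnr2) to 0.00602 (Lrp1) with no low-count filter. They also passed without passage 12 of mouse_283 and without that of mouse_285. Each of those fits leaves passage 12 with a single library, whose spread is then assumed to equal that of the others.

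**Figure D5:**
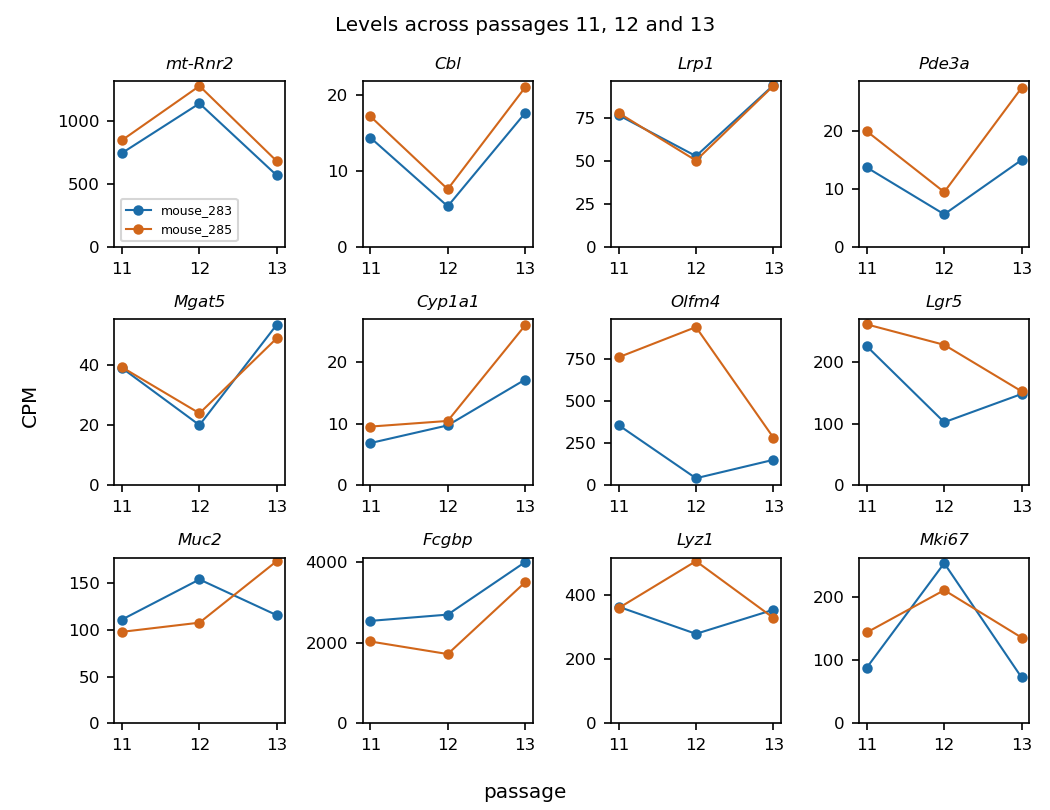
CPM (vertical axes from 0) of 12 genes at passages 11, 12 and 13, 1 line per animal; none passed edgeR's test of passage with all 6 libraries. Cbl, Lrp1, Pde3a and Mgat5 dip at passage 12 in both animals and mt-Rnr2 and Mki67 peak there, while Olfm4 and Lyz1 move in opposite directions between passages 11 and 12.

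These 5 genes differ from the bulk in transcript length. The longest transcripts of Cbl, Lrp1, Mgat5 and Pde3a run to 11372, 14888, 8436 and 12302 bases, against a median of 2940 bases over tested genes, and that of mt-Rnr2 to 1582 bases. Transcript length moved with passage over all genes of at least 20 CPM. In the 1833 longest of these genes (median 6240 bases) the median step from passage 11 to 12 was -0.20 on the log2 scale in mouse_283 and -0.14 in mouse_285, and from 12 to 13 it was 0.21 and 0.13. In the 1834 shortest (median 1430 bases) the steps were 0.06 and 0.16, then -0.13 and -0.12. After a correction for GC content and length the count of calls stayed 0, and the adjusted p for any passage was 0.261 for Cbl, Mgat5 and Pde3a, 0.388 for Lrp1 and 0.911 for mt-Rnr2.

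Mitochondrially encoded genes had their lowest summed level at passage 13 in both lines. The 13 protein-coding genes summed to 53204, 43468 and 31875 CPM in mouse_283 and 48103, 59420 and 37779 CPM in mouse_285. mt-Co1 made up most of this sum, with a mean of 27580 of 45641 CPM over the 6 libraries. All 13 were lower at passage 13 than at 12 in the fit, with a median log2 difference of -0.78 against -0.006 for all genes. There were 0 calls in edgeR and 6 genes at an unadjusted p under 0.05, beside 15.1% of all genes. DESeq2 called 6 as lower, beside 136 of 13653 genes. For passage 12 against 11, 12 of the 13 were higher in the fit (median 0.47), while mt-Co1 was lower. That step had 0 calls in edgeR. DESeq2 called 4 as higher (mt-Nd2, mt-Nd4, mt-Nd5 and mt-Nd6), beside 28 of 13653 genes. Of the 11 at 5 CPM or more, 6 were highest at passage 12 and 6 lowest at passage 13 in both animals, beside 16.9% and 16.1% of 10113 genes. mt-Nd4, a subunit of complex I, was at 1250, 2680 and 671 CPM in mouse_283 and 1557, 2487 and 1176 CPM in mouse_285. mt-Co1 went another way in mouse_283, at 36020, 20635 and 22465 CPM, against 29211, 34055 and 23095 CPM in mouse_285.

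Stem cell genes were mostly lower at passage 13 than at 11. In the fit 20 of 21 stem genes had a lower level, with a median log2 difference of -0.34 against -0.017 for all genes. There were 0 calls in edgeR or DESeq2 and 6 genes at an unadjusted p under 0.05, beside 4.43% of all genes. The stem list summed to 3673, 2358 and 2937 CPM in mouse_283 and 4562, 4659 and 3067 CPM in mouse_285, so the lowest value was at passage 12 in the first line and at passage 13 in the second. Igfbp4, a secreted binding protein of crypt cells, was at 76, 21.6 and 39.4 CPM and 86, 70.7 and 30.2 CPM, Rgmb, a co-receptor of bone morphogenetic proteins, at 133, 58.5 and 79.8 CPM and 263, 283.4 and 130.2 CPM, and Slc12a2, a chloride transporter of crypts, at 717, 539 and 532 CPM and 986, 908 and 674 CPM. Wnt target genes, of which some are also stem genes, had 15 of 18 tested lower at 13 than at 11, with a median of -0.35. They had 0 calls in either tool and 1 gene at an unadjusted p under 0.05, near the share of 4.43% over all genes.

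Goblet genes mostly lay higher at passage 13 than at 11: 17 of 19 tested, with a median log2 difference of 0.34. There were 0 calls in edgeR and 4 genes at an unadjusted p under 0.05, beside 4.43% of all genes. DESeq2 called 1 (Fcgbp), beside 2 of 13653 genes. The sum was 4117, 4602 and 5693 CPM in mouse_283 and 3363, 3308 and 5091 CPM in mouse_285. Fcgbp, a mucus protein that binds IgG, made up most of it, at 2548, 2704 and 4010 CPM and 2036, 1724 and 3507 CPM (adjusted p = 0.896 for 13 against 11, 0.000242 without mouse_283 passage 12 and 0.00057 without mouse_285 passage 12). Clca1, a mucus-processing protease, was at 7.81, 17.7 and 29.6 CPM and 7.01, 3.41 and 11.6 CPM, and Agr2, a goblet cell disulfide isomerase, at 112, 174 and 145 CPM and 87.7, 101 and 134 CPM.

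Enterocyte genes had 25 of 30 higher at 13 than at 11, with a median of 0.32. They had 0 calls in either tool and 8 genes at an unadjusted p under 0.05, beside 4.43% of all genes. The summed level was 5121, 5229 and 5164 CPM in mouse_283 and 6530, 5993 and 7881 CPM in mouse_285, so passage 13 stood out in mouse_285. Rbp2, which carries retinol in the enterocyte, was at 59.3, 171 and 102 CPM and 80.9, 121 and 151 CPM, and Mttp, which loads lipid onto chylomicrons, at 468, 542 and 649 CPM and 521, 418 and 728 CPM. Paneth genes had 16 of 17 tested lower at 13 than at 11, with a median of -0.32. They had 0 calls in either tool and 2 genes at an unadjusted p under 0.05, beside the same 4.43%.

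Among metabolic lists, many genes shared a direction without passing edgeR's test. Of 21 cholesterol synthesis genes found, 20 were higher at 13 than at 11 (median 0.18, 0 calls in either tool). At an unadjusted p under 0.05 there were 5, beside 4.43% of all genes. Of the 21, 12 were highest at passage 13 in both animals, beside 17.4% of all genes. Of 26 xenobiotic and redox genes 23 were higher at 13 than at 11 (median 0.25, 0 calls in edgeR). At an unadjusted p under 0.05 there were 9, beside 4.43% of all genes, and DESeq2 called 1 (Cyp1a1), beside 2 of 13653. Cyp1a1, the cytochrome P450 induced through the aryl hydrocarbon receptor, had the smallest p for 13 against 11, at 6.88, 9.76 and 17.2 CPM and 9.56, 10.5 and 26 CPM; its log2 difference was 1.38 ± 0.194 SE with an adjusted p of 0.896, and the adjusted p was 1.94e-05 without mouse_283 passage 12 and 5.11e-05 without mouse_285 passage 12. Hypoxia and glycolysis genes were lowest at passage 12 in both animals in 14 of 25 cases and fatty acid oxidation genes in 9 of 18, beside 21.0% of all genes. Neither list had an edgeR call between passages. For 13 against 12, DESeq2 called 306 of 13653 genes. Among them were 1 of 25 hypoxia and glycolysis genes (Pfkp) and 3 of 19 tested fatty acid oxidation genes (Cpt1a, Ehhadh and Ppara). It also called 3 of 26 xenobiotic and redox genes (Abcc2, Cyp1a1 and Gpx2) and 0 of 21 cholesterol synthesis genes.

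Some lists had little spread over the 6 libraries, among them the DNA methylation genes. The 18 genes that write, read or erase DNA methylation summed to 944 to 1071 CPM, a coefficient of variation of 4.52%. Dnmt1, the maintenance methyltransferase, was at 197, 157 and 189 CPM and 199, 203 and 200.1 CPM, Uhrf1, its recruiting partner, at 127, 90.7 and 119 CPM and 129, 133 and 124 CPM, and the dioxygenase Tet3 at 108, 65.8 and 101 CPM and 116, 92.3 and 123 CPM; mouse_283 passage 12 was lowest for all 3. Dnmt3l, an activator of germ cell methylation, had no read. Interferon-response genes summed to 165 to 193 CPM (6.09%), with 8 of 25 genes under 1 CPM in every library. The p53 target genes spread more (10.8%), with sums of 1786, 1803 and 1936 CPM in mouse_283 and 1764, 1482 and 1488 CPM in mouse_285. Of 22 tested, 18 had a lower level in mouse_285, with 0 calls between the animals in edgeR. DESeq2 called 4 as lower, beside 306 of 13653 genes. Between passages there were 0 calls in edgeR or DESeq2. For 13 against 11, 1 of 22 p53 target genes had an unadjusted p under 0.05, beside 4.43% of all genes.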

How the data were processed

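Small-intestinal organoid RNA from 6 libraries was analysed. For every library the authors deposited gene-level read counts. Reads were trimmed with Trimmomatic and aligned with STAR to mm9, per the submitters' processing notes, while the annotation release and the counting tool's version are not given in the sources used here. The unstranded count column was used, since the first-strand share was 50.1 to 50.2%; unmapped, multimapping, ambiguous and no-gene reads (5.93 to 8.52%, 6.75 to 8.78%, 3.32 to 3.55% and 3.92 to 5.70%) were left out. Without strand, antisense and overlapping genes cannot be told apart. Of 37310 gene IDs, 32620 matched GENCODE vM21 for symbol, longest transcript length and GC content; no coordinates were carried over.

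Counts were filtered (filterByExpr, 13653 genes), TMM-normalised and tested with edgeR 4.0.16 (quasi-likelihood, R 4.3.3), with animal and passage as terms and 2 residual degrees of freedom (3 for the slope), adjusted by Benjamini-Hochberg over all genes at 0.05. DESeq2 1.42.0 was an alternative. SDs used log2 CPM with a prior count of 2. Animal was a block because each number marks 1 animal; animal differences correlated across genes at 0.169 to 0.455 between passages.

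Named genes were the 20 highest per kilobase, the 10 steadiest and 15 most variable of at least 20 CPM, the 12 largest called differences each way between animals, the 5 smallest p-values for passage, and list members chosen by level and p. Chgb, Epcam, Vil1 and other list members were added as examples after their values were seen. Slc11a2, outside the lists and these rules, was a further example, and its call was not followed through the alternatives. Members and lists were chosen with earlier results of these data known. Promoter sequences come from RefSeq (GRCm38.p6); Slc40a1 and Osr2 had no entry.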

Additional observations from a re-analysis of the deposited data

Results flagged for a closer look

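Among 144 values examined over the 6 libraries (list sums, named genes and library measures), 5 had 1 library far from the other 5 by Dixon's test at its 95% critical value; by chance this marks about 1 in 20 such groups. The summed Paneth list was 2600 CPM in mouse_285 passage 12, against 1500 to 1810 CPM in the others, and Lyz1 was 504.4 CPM there, against 278 to 363 CPM. The summed interferon-response list was 193.1 CPM in mouse_283 passage 12, against 165 to 174 CPM. Ptprc had 0.0342 CPM in mouse_283 passage 12, under the 3-read floor, and no read in the others. Tmem234, one of the steadiest genes, was 102.3 CPM in mouse_285 passage 11, against 105 to 107 CPM.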

How the results depend on the processing

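Each animal is 1 culture line, so no value here extends to animals in general. The 24 largest animal differences and the 15 other called list members kept their direction under all 11 alternatives, and 406 of 429 such comparisons kept their side of the threshold. The 12 genes that lost their call at least once were Kcns3, Esrrg, Nt5e, Areg, Ier3, Krt19, Ace, S100a6, Hk1, Reg3a, Trib3 and Chac1: with animal alone in the model (Kcns3, Esrrg, Areg, Ier3), without passage 13 of one or the other line, or, for Reg3a, also without mouse_285 passage 11. With DESeq2's size factors the animal difference gave 156 genes, and with animal alone in the model 144. With no low-count filter the counts were 670 genes for the animal difference, 234 for any passage, 65 for passage 12 against 11, 367 for 13 against 12, 1 for 13 against 11 and 22 for the animal by passage interaction. The DESeq2 test gave 482, 207, 68, 306, 2 and 1, and 1 for the slope. The correction for GC content and length, with the replicate block, gave 291 genes for the animal difference and 0 for every passage test. Without the replicate block the passage tests (any, 3 pairs, slope) also gave 0 calls, so the block changed no call. Leaving out 1 library at a time gave 63 to 1764 genes for the animal difference, 0 to 2316 for any passage, 0 to 2255 for 12 against 11, 0 to 1959 for 13 against 12, 0 to 304 for 13 against 11, 0 for the slope and 0 to 284 for the interaction; the cause was not tested. The median SD of log2 CPM was 0.153 and ranged from 0.141 to 0.158 over its alternatives, and raw-total CPM moved none of 19 list means by more than their SD. Depth limits readings under 0.104 to 0.198 CPM.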
